A study of Mus musculus with 6 samples.

Results

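A list of 33 genes of the blood and lymphatic endothelium was followed in pancreatic islet cells that had been cultured with T lymphocyte exosomes. The genes were chosen by name as known endothelial genes, and each was represented by the probe with the highest mean signal over the 6 arrays among its probes above background. All 33 had a probe on the array. Of these, 28 were clearly detected in every array of 1 group or both and were tested together with the other genes, 25788 in all. The remaining 5 were Tie1, Erg, Tal1, Mmrn1 and Sox18.

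The cells were dispersed islet cells from male mice of the C57Bl/6N strain, and RNA was taken after 72 h in culture. Control cells received no exosomes (3 arrays), and exoNOD cells received 50 µg/ml of exosomes collected from the medium of T lymphocytes (CD4+CD25-) taken from NOD mice, which are prone to autoimmune diabetes (3 arrays). Both groups share the strain, sex and culture. The 3 experiments differed in their islet and exosome preparations, and no exosome preparation of another origin was analysed here. The comparison asks how such vesicles alter gene expression in islet cells, and the list describes its endothelial side.

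Islets are threaded by a dense network of fenestrated capillaries whose endothelial cells exchange growth factors and basement membrane with the endocrine cells. Endothelial cells hold together through adherens and tight junctions, respond to VEGF through the receptors VEGFR1, VEGFR2 and VEGFR3 and to angiopoietins through the receptor Tie2, and are specified by ETS, SOX and GATA family transcription factors. Endothelial cells are a minority in islets and are gradually lost when islets are cultured. Several of the listed genes are also active elsewhere: Pecam1 and Cd93 in myeloid cells, Cd34 in progenitors and stromal cells, Lyve1 in tissue macrophages, Vwf in megakaryocytes, Tal1 in blood cells and Prox1 in islet endocrine cells.

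Levels are log2 processed signals minus the 75th percentile of the array, so a level of 0 is the signal at that percentile. Changes are the exoNOD mean minus the control mean (n = 3 arrays per group), and adjusted p-values are from limma with Benjamini-Hochberg adjustment over all genes and a threshold of 0.05. Each change was tested without and with a block for the replicate number. In what follows "rose" and "fell" refer to genes that passed with the block, because no endothelial gene passed in the planned fit without it. In bulk RNA, fewer cells of a type and less RNA per cell cannot be told apart.

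The arrays were alike in detection and saturation but not in every measure. The median signal was 112 to 117 on control arrays and 121 to 140 on exoNOD arrays. Flagged uneven spots made up 0.38% to 0.43% on the controls and exoNOD replicate 1. On exoNOD replicates 2 and 3 they made up 0.53% and 0.62%. Between 78.1% and 81.8% of the 43020 spots per array were well above background, the 75th percentile of signal lay between 812 and 890, and 0 spots were saturated. By scan time exoNOD replicate 1 goes with the 3 controls, and the other exoNOD arrays go together. Arrays of 1 scan time are called a slide here, although no slide label was read. Only exoNOD replicate 1 can thus be set against controls of its own slide. The median change over all genes was 0.035. The number of arrays limits the precision, and nothing in the labels ties equal replicate numbers to 1 preparation.

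In exoNOD cells some vascular endothelial genes were lower, as called with the replicate block and not in the planned fit without it. Among the alternative settings without the block, Egfl7 and Esm1 passed with normexp and Cd93 without exoNOD replicate 1. With the replicate block 7 of the 28 tested genes fell: the VE-cadherin gene Cdh5, the sialomucin gene Emcn, the receptor phosphatase gene Ptprb, the guidance receptor gene Robo4, the C-type lectin receptor gene Cd93 and the genes of the secreted proteins Egfl7 and Esm1. They fell by between 1.60-fold (Egfl7) and 2.15-fold (Cd93). Plvap, which encodes the diaphragm protein of capillary fenestrae, rose 1.35-fold on its brighter probe only, and the other 20 did not pass. Of all genes tested, 1.83% fell and 6.89% rose with the block (8.72% either way). Without the block 0 of 28 passed in limma, 9 had an unadjusted p under 0.05, and 0.105% of all genes passed (0.00388% lower and 0.101% higher in exoNOD cells).

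Of the 28 changes, 16 were negative and 12 positive, with a median of −0.13 against 0.035 for all genes. The exoNOD arrays lay wholly below the controls for 6 genes (Cdh5, Emcn, Esam, Robo4, Cd93 and Rasip1) and wholly above for 2 (Plvap and Vwf), against 7.78% and 14.6% of all genes (22.4% either way). The 3 differences between arrays of equal replicate number had 1 sign for 16 of the 28, against 51.2% of all genes. On the shared slide exoNOD replicate 1 lay below all controls for 9 genes and above all for 6, against 20.8% and 27.4% of all genes. The endothelial genes thus did not all move one way. Defining genes of the cell type divided in the same way, since Cdh5 fell, the brighter Plvap probe rose, Pecam1 did not pass and Tie1 was not well above background on any array.

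**Figure D1:**
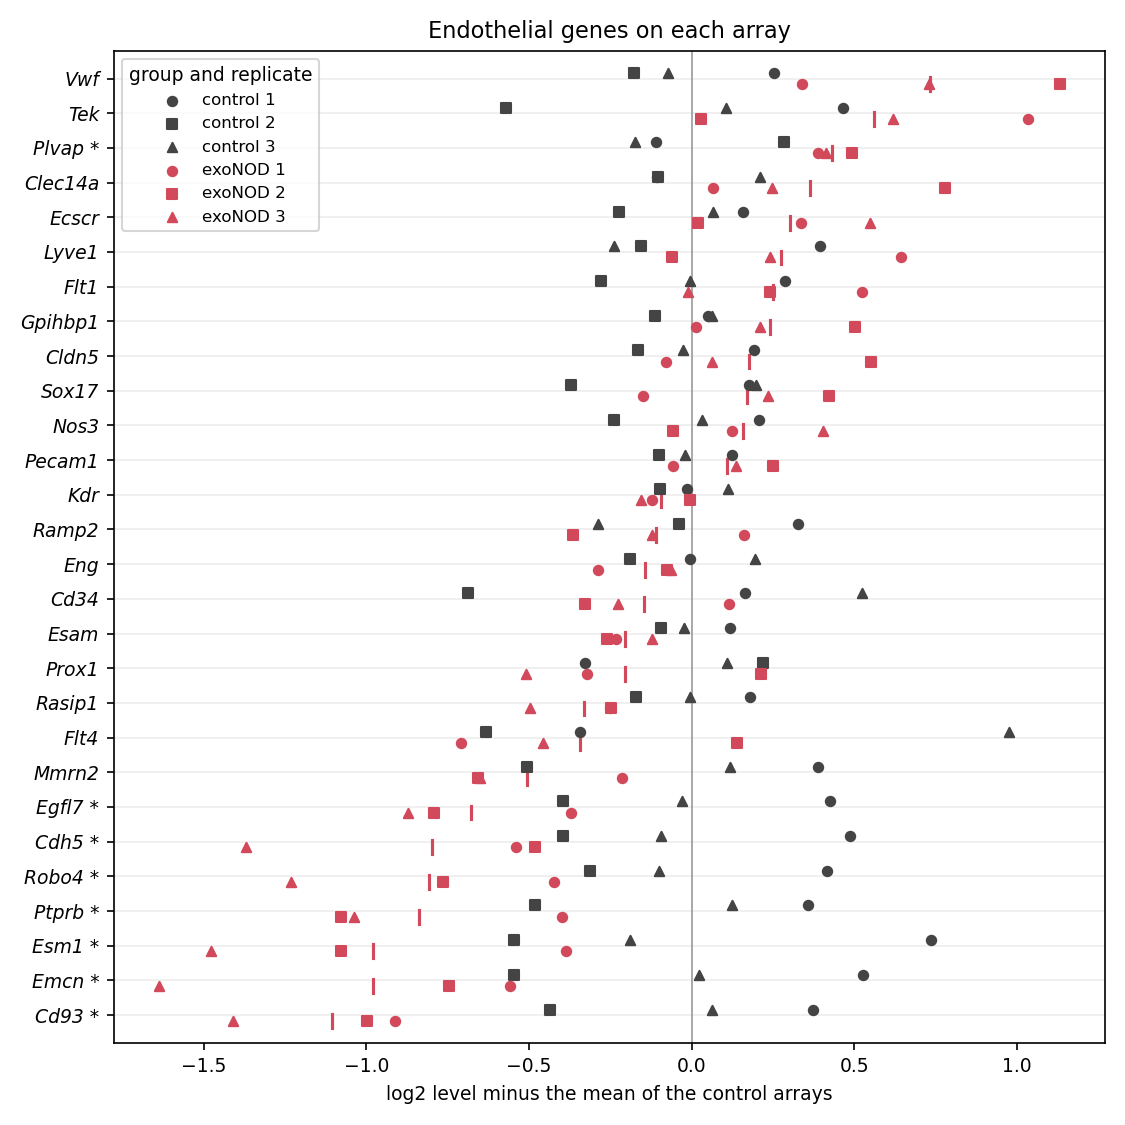
Level of each of the 28 tested endothelial genes on each array, as log2 level minus the mean of the 3 controls (horizontal axis), with control arrays in dark grey, exoNOD arrays in red, the shape giving the replicate number and a red tick at the exoNOD mean. Asterisks mark the 8 genes that passed with the replicate block; their means run from −1.11 for Cd93 to 0.43 for Plvap.

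The last 250 bases before the start of 3 genes that fell are shown because these genes moved together and because the motifs of 3 endothelial factor families can be searched in them. The sequences are from RefSeq (GRCm38.p6), written 5′ to 3′ on the gene's strand. Capitals mark the ETS core AGGAAG, read on either strand, and the SOX motif AACAAT.
Robo4 (chr9:37401722-37401971, + strand): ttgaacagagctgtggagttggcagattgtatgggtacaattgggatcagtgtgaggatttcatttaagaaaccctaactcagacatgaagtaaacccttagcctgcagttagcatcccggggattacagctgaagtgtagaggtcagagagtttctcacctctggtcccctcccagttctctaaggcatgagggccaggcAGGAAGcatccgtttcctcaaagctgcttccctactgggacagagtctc
Emcn (chr3:137340828-137341077, + strand): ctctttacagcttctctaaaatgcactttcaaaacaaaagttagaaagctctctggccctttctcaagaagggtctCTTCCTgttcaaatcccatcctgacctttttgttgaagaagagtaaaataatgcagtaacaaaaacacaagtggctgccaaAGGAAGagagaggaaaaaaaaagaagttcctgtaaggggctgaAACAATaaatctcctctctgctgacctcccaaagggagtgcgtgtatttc
Esm1 (chr13:113209409-113209658, + strand): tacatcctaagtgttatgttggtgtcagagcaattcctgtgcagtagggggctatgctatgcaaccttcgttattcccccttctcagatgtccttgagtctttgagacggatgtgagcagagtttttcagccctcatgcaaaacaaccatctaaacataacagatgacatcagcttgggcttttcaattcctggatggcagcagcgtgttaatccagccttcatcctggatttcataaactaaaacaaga
The Robo4 window held 1 match to AGGAAG, and the Emcn window held 2 matches to it and 1 to AACAAT. The Esm1 window held no match to any motif searched. Those were AGGAAG, a second ETS core CCGGAA (which may share an end base with the first), AACAAT and the GATA motif AGATAA, all on both strands. The table used held promoters for 18 of the 33 genes. AGGAAG occurred in 9 of these 18 genes and in 32.3% of all 27025 genes (29.5% of 32851 windows), and CCGGAA in 1 of 18 and in 13.6% of all genes. AACAAT occurred in 4 of 18 and in 10.9%, and AGATAA in 2 of 18 and in 11.4%. Of the genes that fell, 4 had a promoter in the table and 3 of these held AGGAAG, the third being Egfl7. These matches describe letters in a window and do not locate a binding site. The motifs and the printed windows were chosen after the expression values were seen.

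Among the genes of junctions and the cell surface, Cdh5 and Emcn fell and the other 4 did not pass. Cdh5, which encodes the adhesion molecule of endothelial adherens junctions, had levels of −0.91, −1.79 and −1.49 on control arrays 1, 2 and 3 and of −1.94, −1.88 and −2.77 on exoNOD arrays 1, 2 and 3. All exoNOD arrays lay below all controls, but exoNOD replicate 2 lay close under control replicate 2. The change was −0.80 ± 0.29 (SE; limma adjusted p = 0.247), and with the block −0.80 ± 0.19 (adjusted p = 0.035), a 1.74-fold fall. With the block Cdh5 did not pass after quantile normalization (adjusted p = 0.0514) or in the authors' values (0.0529), and without exoNOD replicate 3 its change in the fit without the block was −0.51. Emcn encodes endomucin, an anti-adhesive mucin of capillaries and veins. Its levels were −2.97, −4.04 and −3.48 in control and −4.06, −4.24 and −5.13 in exoNOD cells. Here too the groups did not overlap, and the narrowest gap was between control replicate 2 and exoNOD replicate 1. The change was −0.98 ± 0.34 (adjusted p = 0.242), and with the block ± 0.25 (adjusted p = 0.0398), a 1.97-fold fall. Emcn did not pass with the block once replicate number 3 was left out (−0.64, adjusted p = 0.114), and its change without the block was −0.65 without exoNOD replicate 3.

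Pecam1, the gene of the junctional adhesion molecule CD31, gave a different picture. Its levels were −1.05, −1.28 and −1.20 in control and −1.23, −0.93 and −1.04 in exoNOD cells, and the groups overlapped. The change was 0.11 with a 95% interval from −0.16 to 0.37 in the fit with the block (adjusted p = 0.578), so the interval does not reach the change of Cdh5. Esam, which encodes a tight junction adhesion molecule, was lower on all exoNOD arrays, at −0.50, −0.52 and −0.39 against −0.15, −0.36 and −0.29. That difference was small, −0.20 ± 0.09, and did not pass (adjusted p = 0.188 with the block). The tight junction gene Cldn5 (change 0.18) and the sialomucin gene Cd34 (change −0.15) had overlapping groups and adjusted p-values of 0.626 and 0.601 with the block. The sign of the change turned for Pecam1, Cldn5 and Cd34 when exoNOD replicate 1 was set against the controls of its slide (−0.058, −0.081 and 0.12).

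Of the growth factor receptors and their regulators, Ptprb was the member that fell. It encodes VE-PTP, the phosphatase that restrains Tie2 and steadies VE-cadherin. Its levels were −1.55, −2.39 and −1.78 in control and −2.30, −2.99 and −2.94 in exoNOD cells. Groups overlapped because control replicate 2 lay below exoNOD replicate 1, while within each replicate number the exoNOD array was lower (differences of −0.75, −0.60 and −1.16). The change was −0.84 ± 0.26 (adjusted p = 0.217), and with the block ± 0.14 (adjusted p = 0.00631), a 1.79-fold fall. Without replicate number 2 its adjusted p with the block was 0.050001.

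Kdr, the gene of VEGFR2, gave different answers on its 2 probes. The brighter probe (A_55_P2094469) had levels of 0.50, 0.42 and 0.63 in control and 0.39, 0.51 and 0.36 in exoNOD cells, a change of −0.095 with a 95% interval from −0.30 to 0.11 in the fit with the block (adjusted p = 0.536). The dimmer probe (A_51_P316553), which was also above background on all arrays, had levels of 0.071, −0.76 and −1.13 in control and −1.27, −1.25 and −2.19 in exoNOD cells. On that probe the groups did not overlap. Its change was −0.97 (adjusted p = 0.257 without and 0.0034 with the block in a fit over all probes). Where in the transcript each probe lies was not examined, and the reading of Kdr depends on the probe. The reading of second probes was added after the data had been seen.

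The other receptors of this group did not pass. Flt1, which encodes VEGFR1 and its soluble decoy form, had levels of −1.11, −1.68 and −1.41 in control and −0.88, −1.16 and −1.41 in exoNOD cells, a change of 0.25 (adjusted p = 0.204 with the block). Tek, which encodes Tie2, was near the detection limit, with 2 control and 3 exoNOD arrays above background. Its levels were −5.68, −6.71 and −6.04 in control and −5.11, −6.12 and −5.52 in exoNOD cells. The exoNOD array was higher in each pair of equal number, by 0.57, 0.60 and 0.51, but the groups overlapped and the adjusted p was 0.158 with the block. Eng, which encodes the TGF-beta co-receptor endoglin, had levels of −2.39, −2.57 and −2.19 in control and −2.67, −2.46 and −2.45 in exoNOD cells, a change of −0.14 (adjusted p = 0.509 with the block). Tie1, an orphan receptor that partners with Tie2, has no fold here because it was not well above background on any array of either group.

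**Figure D2:**
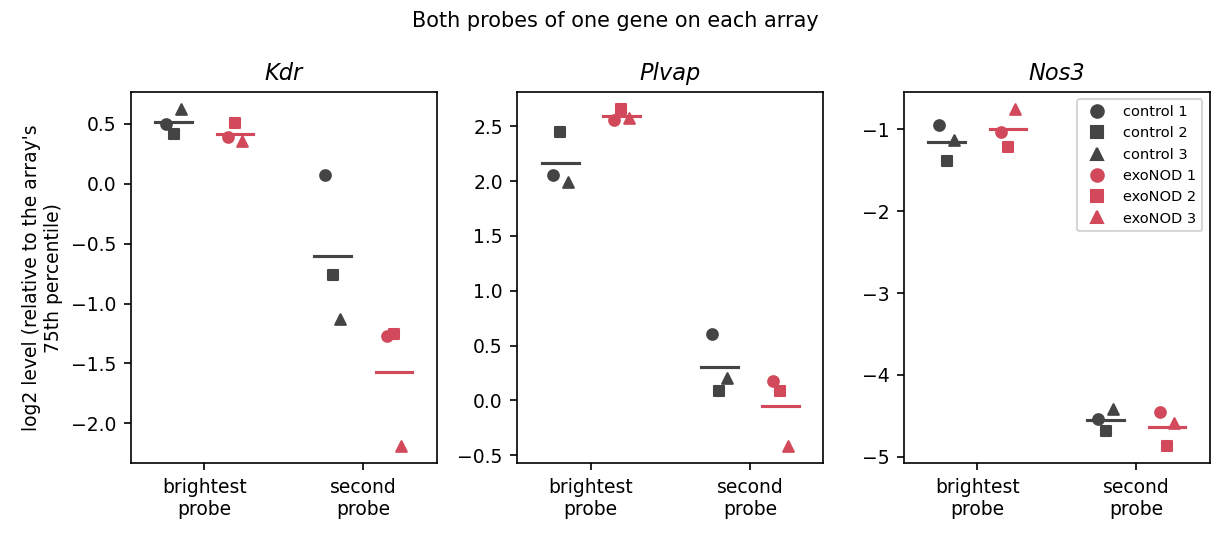
Log2 level (vertical axis, relative to the 75th percentile of the array) on each array for both probes of the 3 endothelial genes with more than 1 probe above background; colours give the group, shapes the replicate number and horizontal lines the group means. For Kdr the second probe differs between groups by −0.97 and the brightest by −0.095, for Plvap the signs are opposite (0.43 and −0.35), and for Nos3 both differences are small (0.16 and −0.091).

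Of the remaining surface receptors, Cd93 and Robo4 fell. Cd93, a lectin-like receptor that binds multimerin-2 and takes part in vessel sprouting, had levels of −1.78, −2.59 and −2.09 in control and −3.07, −3.15 and −3.57 in exoNOD cells. The groups were well apart, and exoNOD replicate 1 lay below every control of its slide. The change was −1.11 ± 0.23 (adjusted p = 0.0911), and with the block ± 0.18 (adjusted p = 0.00529), a 2.15-fold fall. Robo4 encodes an endothelial receptor that stabilises vessels. Its levels were −0.37, −1.10 and −0.89 in control and −1.21, −1.55 and −2.02 in exoNOD cells, again without overlap. The change was −0.81 ± 0.24 (adjusted p = 0.213), and with the block ± 0.13 (adjusted p = 0.00569), a 1.75-fold fall. Clec14a, a relative of Cd93 that also binds multimerin-2, and Ramp2, which makes the calcitonin receptor-like receptor respond to adrenomedullin, did not pass (changes 0.36 and −0.11, adjusted p = 0.303 and 0.511 with the block).

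Among secreted proteins, Esm1 and Egfl7 fell, and the multimerin-2 gene Mmrn2 lay just short of the threshold. Esm1, which encodes the proteoglycan endocan and is a marker of VEGF-stimulated tip cells, had levels of 2.11, 0.83 and 1.19 in control and 0.99, 0.30 and −0.10 in exoNOD cells. Control replicate 1 stood well above the other controls, and exoNOD replicate 1 lay between them. The change was −0.98 ± 0.35 (adjusted p = 0.247), and with the block ± 0.13 (adjusted p = 0.00231), a 1.97-fold fall. Without control replicate 1 the change in the fit without the block was −0.61. Egfl7 encodes an endothelial matrix protein and hosts miR-126 in an intron. Its levels were 1.76, 0.94 and 1.31 in control and 0.97, 0.55 and 0.47 in exoNOD cells. The groups overlapped by the narrow margin between control replicate 2 and exoNOD replicate 1. The change was −0.68 ± 0.21 (adjusted p = 0.22), and with the block ± 0.10 (adjusted p = 0.00384), a 1.60-fold fall. Mmrn2, a matrix protein that binds Cd93 and Clec14a, had a change of −0.51 and an adjusted p of 0.0508 with the block.

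Vwf, the gene of the clotting protein von Willebrand factor, was higher on every exoNOD array. Its levels were −3.48, −3.91 and −3.80 in control and −3.39, −2.60 and −3.00 in exoNOD cells, with exoNOD replicate 1 just above control replicate 1. The change of 0.73 did not pass (adjusted p = 0.217, and 0.0608 with the block). It passed with the block when replicate number 1 (1.06, adjusted p = 4.07e-05) or 3 (0.70, adjusted p = 0.0414) was left out, and without the block when exoNOD replicate 1 was left out (0.93, adjusted p = 0.0484), but not with the block without replicate number 2 (0.44, adjusted p = 0.318). Megakaryocytes and platelets also hold Vwf. Of 6 markers of these cells Gp9 and Ppbp were above background on no array, 4 were tested, and the platelet chemokine gene Pf4 rose with the block (log2 change 2.94); their summed signal ran from 0.194 to 0.279 times the 75th percentile in control and from 0.529 to 1.17 in exoNOD cells. Their part in the Vwf values was not tested.

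**Figure D3:**
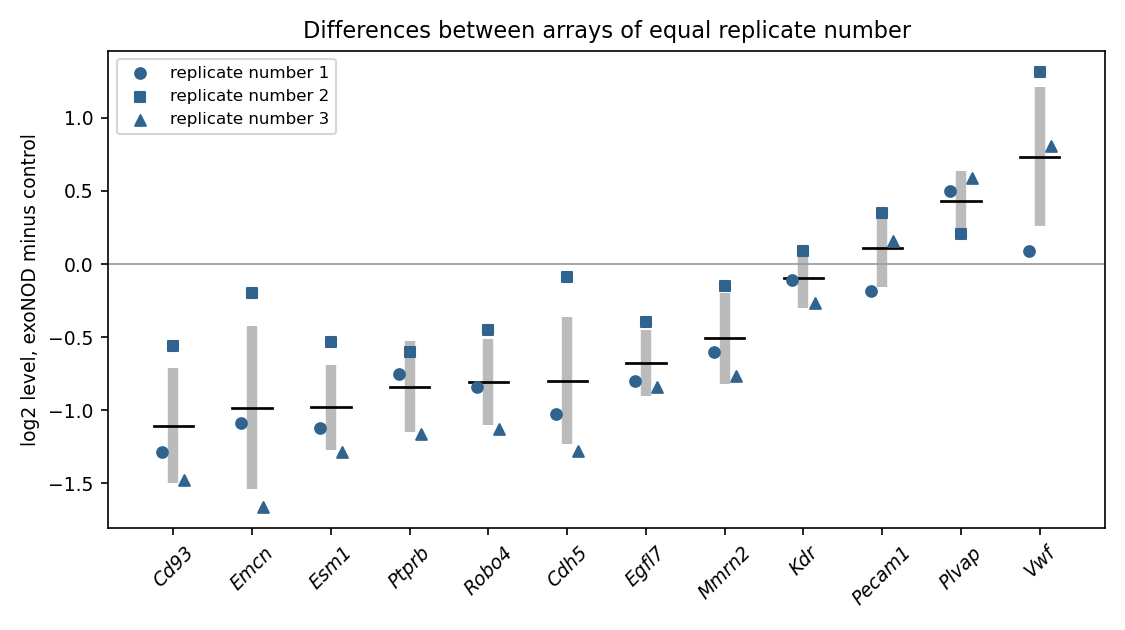
Difference between the exoNOD and control array of equal replicate number (vertical axis, log2) for 12 endothelial genes, with the mean as a black line and the 95% interval of the fit with the replicate block as a grey bar. For Cd93 to Egfl7 on the left all 3 differences are negative; replicate number 2 gives the smallest, from −0.089 for Cdh5 to −0.60 for Ptprb.

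Of the 3 genes of capillary function, Plvap passed with the block on 1 of its probes and the others did not pass. Plvap had levels of 2.06, 2.45 and 1.99 in control and 2.56, 2.66 and 2.58 in exoNOD cells on its brighter probe (A_55_P2049186). The exoNOD arrays lay close together and above every control. The change was 0.43 ± 0.13 (adjusted p = 0.216), and with the block ± 0.09 (adjusted p = 0.0212). It did not pass with the block without replicate number 3 (0.35, adjusted p = 0.0948). The dimmer Plvap probe (A_51_P414653) pointed the other way, with levels of 0.61, 0.089 and 0.21 in control and 0.17, 0.083 and −0.42 in exoNOD cells. Its change of −0.35 did not pass (adjusted p = 0.387, and 0.084 with the block), so no direction can be given for Plvap as a gene. Gpihbp1, which carries lipoprotein lipase across capillaries, and Nos3, the endothelial nitric oxide synthase gene, did not pass (changes 0.24 and 0.16, adjusted p = 0.252 and 0.387 with the block).

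The genes of intracellular signalling and transcription gave no call. Ecscr, a regulator of endothelial chemotaxis, had a change of 0.30 (adjusted p = 0.0725 with the block) that passed once replicate number 1 was left out (0.36, adjusted p = 0.0317). Rasip1, a Ras-interacting protein needed for vessel lumens, was lower on all exoNOD arrays, at −3.91, −3.91 and −4.16 against −3.48, −3.83 and −3.67, and did not pass (−0.33, adjusted p = 0.222 with the block). The arterial factor gene Sox17 had a change of 0.17 and overlapping groups (adjusted p = 0.688 with the block). Erg and Tal1, which encode an ETS factor and a blood and endothelial factor, were above background on no array, and Sox18 on 1 control array.

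The lymphatic genes showed no common direction. Flt4, the VEGFR3 gene, had levels of −5.12, −5.41 and −3.80 in control and −5.48, −4.63 and −5.23 in exoNOD cells. Its mean change of −0.34 rested on control replicate 3 and became 0.15 without it, and it did not pass (adjusted p = 0.547 with the block). Lyve1, a hyaluronan receptor, had levels of −0.85, −1.40 and −1.49 in control and −0.60, −1.31 and −1.004 in exoNOD cells (change 0.28, adjusted p = 0.136 with the block). Prox1, the master factor of lymphatic identity, had levels of −3.72, −3.17 and −3.28 in control and −3.71, −3.18 and −3.90 in exoNOD cells (change −0.21, adjusted p = 0.46 with the block). Mmrn1, a multimerin of lymphatic endothelium and platelets, was above background on 1 exoNOD array.

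The genes that fell shared their highest array. Control replicate 1 was the highest of the 6 arrays for all 7 of them and for 11 of the 28 tested genes, against 13.1% of all genes. The summed signal of the 7 was 9.78, 4.87 and 6.26 times the 75th percentile on control arrays 1, 2 and 3 and 5.01, 3.59 and 2.95 on the exoNOD arrays, so by this sum exoNOD replicate 1 lay above control replicate 2. That order held for Ptprb, Egfl7 and Esm1, while for Cdh5, Emcn, Robo4 and Cd93 exoNOD replicate 1 lay below control replicate 2. The lowest array was exoNOD replicate 2 for Ptprb and exoNOD replicate 3 for the other 6. With replicate number 1 left out, all 7 still fell in the fit with the block, with changes between −0.62 (Egfl7) and −1.02 (Cd93). That fit has 1 residual degree of freedom per gene and leans on the spread pooled over genes. It passed 4171 of all 25788 genes, 724 of them lower in exoNOD cells. The 7 had been picked by a fit that held all these arrays. Neither this fit nor the comparison on the shared slide is therefore a separate test of them. Against the controls of its own slide, exoNOD replicate 1 was lower for all 7, with differences of −0.91 for Cd93, −0.56 for Emcn, −0.54 for Cdh5, −0.42 for Robo4, −0.40 for Ptprb, −0.39 for Esm1 and −0.37 for Egfl7. These differences are from the mean of the 3 controls, and all 7 were smaller in size than those over all arrays. From control replicate 1 alone, the highest array for these genes, exoNOD replicate 1 differed by between −0.75 (Ptprb) and −1.28 (Cd93). Under normexp background correction Egfl7 and Esm1 passed (−0.70 and −0.95), while the values of Cdh5 (−0.12), Cd93 (−0.14), Robo4 (−0.34), Ptprb (0.0029) and Emcn (0.34) lay nearer to 0 or turned; that correction moved the median of all genes to 0.35.

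Around the list, 94 ligands, receptors and further endothelial genes were examined, of which 87 were tested. With the block 12 of them rose and 3 fell, against 6.89% and 1.83% of all genes, and the median change was 0.08. Without the block Vcam1 passed. Among 35 tested further endothelial markers 17 changes were negative and 18 positive, with a median of 0.0056. With the block 1 of these markers fell and 0 rose. That gene was Ece1, which encodes endothelin-converting enzyme and is widely expressed (change −0.53, adjusted p = 0.0049 with the block, and 0.0535 without replicate number 2).

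Ligands of the receptors in the list moved unevenly. Vegfa, the main ligand of VEGFR2, had levels of 2.01, 2.36 and 2.13 in control and 2.18, 2.49 and 2.05 in exoNOD cells, and did not pass (0.077, adjusted p = 0.575 with the block). Vegfc, the ligand of VEGFR3, rose by 0.70 (adjusted p = 0.0106 with the block), from −2.90, −2.68 and −2.82 to −2.10, −1.89 and −2.32. Angpt2, the antagonistic Tie2 ligand made by endothelial cells, fell by 0.49 (adjusted p = 0.0275 with the block), from 2.34, 1.31 and 1.43 to 1.64, 1.18 and 0.78. As for the members that fell, control replicate 1 was the highest array for Angpt2, and the change without the block was −0.17 when it was left out and −0.28 when exoNOD replicate 3 was. With the block Angpt2 did not pass after quantile normalization (adjusted p = 0.0764) or in the authors' values (0.0783). Angpt1, the activating Tie2 ligand, was above background on 1 exoNOD array and was not tested. Apln, the tip cell peptide apelin, fell by 0.82 (adjusted p = 0.00983), from 0.14, −1.08 and −0.55 to −0.82, −1.40 and −1.73. Its receptor gene Aplnr rose by 0.66 (adjusted p = 0.0417), from −3.64, −3.53 and −3.57 to −3.40, −2.55 and −2.81. Receptor and ligand thus differed in sign, and control replicate 1 was again the highest array for Apln, whose change without the block was −0.50 when that array was left out. Aplnr did not pass with the block after quantile normalization (adjusted p = 0.089), in the authors' values (0.0905), or without replicate number 2 (0.229) or 3 (0.0891).

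The remaining signalling genes that passed with the block rose. In the VEGF and neuropilin list these were Vegfc, the semaphorin receptor gene Plxnd1 (0.58, adjusted p = 0.0104) and its ligand gene Sema3c (0.50, adjusted p = 0.0467). Angptl4, a lipase inhibitor induced by fasting and low oxygen, rose by 0.83 (adjusted p = 0.00197). Notch1 rose by 0.88 (adjusted p = 0.00116), from 2.40, 3.48 and 2.73 to 3.44, 4.15 and 3.64. The BMP target gene Id3 rose by 0.41 (adjusted p = 0.0159). Slit2, a ligand of Robo receptors, rose by 0.55 (adjusted p = 0.0259), the sphingosine-1-phosphate receptor gene S1pr3 by 0.61 (adjusted p = 0.0357) and the sphingosine kinase gene Sphk1 by 0.66 (adjusted p = 0.0086). Several of these calls were lost in other fits with the block. With quantile normalization and with the authors' values, respectively, the adjusted p was 0.127 and 0.128 for Sema3c, 0.0734 and 0.0754 for Slit2, and 0.0771 and 0.0786 for S1pr3. Without replicate number 2, Vegfc, Plxnd1, Sema3c, Id3, Slit2, S1pr3 and Sphk1 did not pass (adjusted p from 0.0682 for Id3 to 0.207 for S1pr3). Sema3c (0.286) and Id3 (0.105) did not pass without replicate number 3, nor Slit2 (0.057) without replicate number 1. In the fit without the block, leaving out 1 array lowered Sema3c to 0.25 (control replicate 2) and 0.24 (exoNOD replicate 3) and raised it to 0.76 (exoNOD replicate 2). It lowered Plxnd1 to 0.33 for either control replicate 2 or exoNOD replicate 3, Angptl4 to 0.48 (exoNOD replicate 3) and Slit2 to 0.36 (control replicate 1). These genes are active in many cell types, and their values do not assign the change to the endothelium. The second probes of Notch1 (0.28), Plxnd1 (0.39), Sema3c (0.42) and Sphk1 (0.54) had the same sign and did not pass with the block (adjusted p = 0.492, 0.093, 0.203 and 0.1002).

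Of the 5 tested genes of activated endothelium, Vcam1 and Icam1 rose with the block and 3 did not pass, against 6.89% of all genes that rose. Vcam1, the adhesion molecule for monocytes and lymphocytes, had levels of −2.93, −2.96 and −2.86 in control and −1.74, −1.70 and −1.98 in exoNOD cells, a change of 1.11 ± 0.13 (adjusted p = 0.0364, and 0.00169 with the block). The groups lay far apart on that probe, while the second Vcam1 probe gave 0.67 (adjusted p = 0.125 with the block). Icam1, an adhesion molecule for leukocyte integrins, rose by 0.52 (adjusted p = 0.0378 with the block), from −3.16, −2.92 and −2.87 to −2.79, −2.28 and −2.32. Icam1 did not pass with the block after quantile normalization (adjusted p = 0.083), in the authors' values (0.0844), or without replicate number 2 (0.161) or 3 (0.131). Sele was not tested. Both Vcam1 and Icam1 are also expressed by stromal and endocrine cells under inflammatory stimuli.

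**Figure D4:**
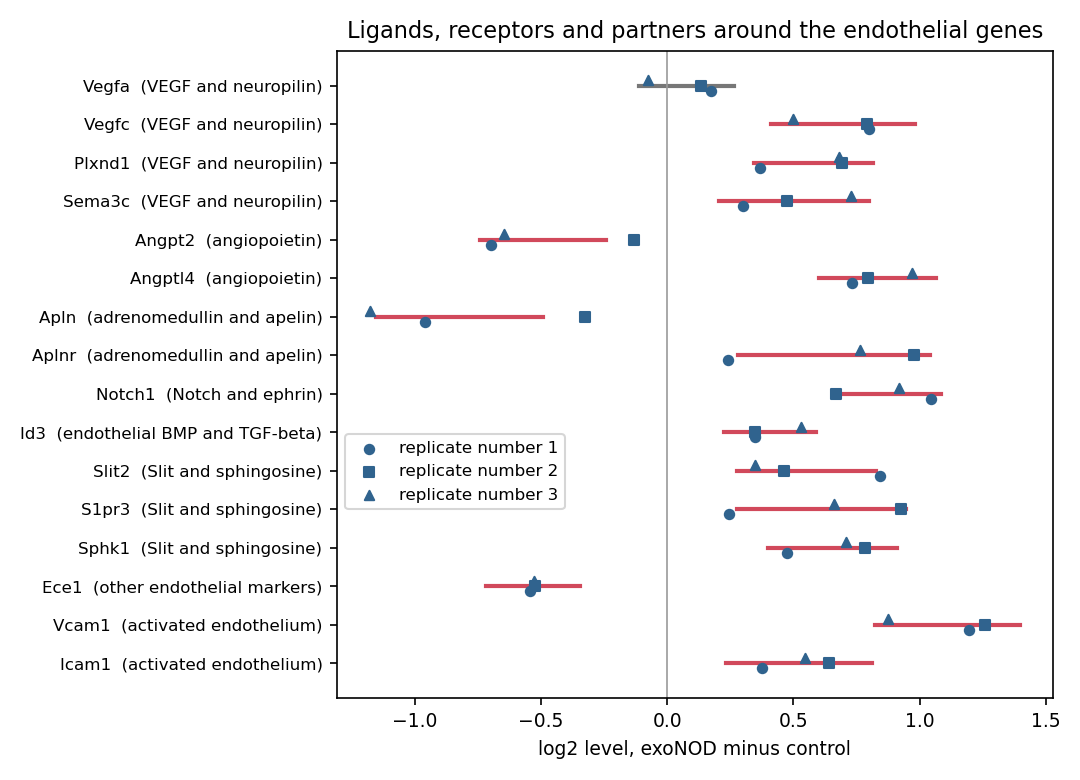
Difference between the exoNOD and control array of equal replicate number (horizontal axis, log2; shapes give the number) for 16 genes of pathways around the endothelial list, named in brackets; bars are the 95% interval of the fit with the replicate block, red where the gene passed. Angpt2, Apln and Ece1 lie to the left of 0, Vegfa at 0.077 spans it, and the other 12 lie to the right, up to 1.11 for Vcam1.

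Markers of other cell types also moved. Of 7 tested macrophage markers Adgre1 (−0.87), Itgam (−0.50) and Cx3cr1 (−1.11) fell and Mrc1 rose (2.20) with the block; the list's summed signal was 24.3 to 27.3 times the 75th percentile in control and 18.8 to 20.3 in exoNOD cells. Of 11 tested pericyte and smooth muscle markers Mcam rose (0.85) and Cnn1 fell (−0.88), with summed signals of 34.7 to 44.4 and 38.8 to 54.1. Of 7 tested fibroblast markers Pdgfra (1.23) and Fbln1 (0.74) rose, with summed signals of 39.8 to 60.0 and 50.6 to 71.4. Of 8 beta cell markers 5 fell with the block, and of 5 B lymphocyte markers Cd79b (1.05) and Ms4a1 (1.73) rose. Ms4a1 was above background on 0 control and 3 exoNOD arrays, and Mrc1 on 1 and 3. The filter kept both only through the exoNOD arrays. Their control levels lie near background, so their changes are not read as folds. The summed signals of the macrophage, beta cell, and alpha and delta cell lists lay lower in exoNOD than in control cells without overlap. A sum mostly follows the brightest genes of its list and does not describe every member. These were Itgam for macrophages, Ins1, Ins2 and Iapp for beta cells, and Gcg and Sst for alpha and delta cells. The macrophage markers Csf1r (−0.019) and C1qb (0.019) hardly differed between the groups. Those of the platelet, mast cell, B lymphocyte and duct cell lists lay higher without overlap. The sums of the endothelial list overlapped, at 18.5 to 24.4 in control and 18.3 to 20.8 in exoNOD cells, and also without Plvap, at 13.0 to 20.2 and 12.3 to 14.9. The part of these cell types in the endothelial values was not tested.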

How the data were processed

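Gene expression was read from total RNA on Agilent mouse arrays in the Cy3 channel, 3 arrays per group. Per the file headers and the submitters' processing notes, the deposited files come from Agilent Feature Extraction 11.0.1.1, and the processed signal is an intensity corrected for background on each array. Flags deposited for each spot, other values of 0 or 1, mark it as above background, saturated or uneven. The authors' deposited log2 values correlated with their own arrays at 0.9998 or more (across probes) and served as an alternative; how they were normalized is not given in the sources used here.

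Flagged uneven spots and control spots were left out, the log2 signal was averaged per probe and the 75th percentile of the array subtracted. Probes detected above background throughout 1 group or both were kept, and the brightest stood for its gene. Names came from RefSeq accessions (27234 of 39429 probes; the others kept their probe name). limma 3.58.1 in R 4.3.3 (lmFit, eBayes with a trend) was used, with data.table (version 1.17.8) for reading. The fit without the block was run on simulated data with independent noise, and the fit with the block was not. Promoter letters and the printed window coordinates are from RefSeq (GRCm38.p6). No other genome positions of genes or probes were used.

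Deviations from the group means correlated, across genes, at 0.366, 0.281 and 0.480 between arrays of equal replicate number and between −0.341 and 0.00876 otherwise. Equal numbers were therefore taken as pairs (minimum 0.1), from the data and not from the labels, and values with the replicate block are printed beside the planned fit without it. Deviations within a group cancel for each gene. The lower correlations thus follow in part from the higher ones and are no separate support for the pairs. P-values measure the spread between these arrays. Alternatives were quantile normalization, median scaling, normexp (offset 50, on the median signal and not on the mean signal as planned), the authors' values, no filter, slide, left-out arrays and second probes. In full are named the genes that passed in either fit, with defining and lymphatic genes added; the rest are given by changes and counts. Members and lists were chosen with earlier results of these data known. An earlier handling that kept uneven spots where a probe had no other was dropped after its count of calls over all genes had been compared with an earlier analysis of these data.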

Additional observations from a re-analysis of the deposited data

How the results depend on the processing

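Without the block, 0 endothelial genes passed by limma in the planned setting (9 at an unadjusted p under 0.05), after quantile normalization, median scaling, without the filter, in the authors' values, with slide as a block or on slide 1 only, and 2 fell (Egfl7 and Esm1) with normexp. Leaving out 1 array gave 0 to 2 (Cd93 and Vwf without exoNOD replicate 1). Over all genes, leaving out 1 array gave 0 to 1272, the most also without exoNOD replicate 1. With the replicate block 8 passed, and 8 after quantile normalization or in the authors' values, of which 7 were shared: Mmrn2 entered (adjusted p = 0.0369 and 0.0378) and Cdh5 left (0.0514 and 0.0529). With the block and 1 replicate number left out, 7 to 10 passed. Those fits passed 4171, 447 and 1738 of all 25788 genes without replicate number 1, 2 and 3, so the endothelial counts are to be read beside them. The call of these genes rests on the pairing, which the labels do not state. Over all genes the block gave 1777 rises and 472 falls, and 865 and 391 after quantile normalization.

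In the related lists 1 gene passed without the block (Vcam1), 0 with median scaling, normexp, no filter, slide as a block or slide 1 only, and 0 to 5 with 1 array left out. With the block 15 passed, 10 after quantile normalization or in the authors' values, and 5 to 24 with 1 replicate number left out. The counts over all genes given above for left-out arrays and replicate numbers apply here too.

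The alternative values are not independent, so their number overstates how often a sign was tried. The replicate block hardly alters a change over all arrays, and slide as a block and slide 1 only give the same estimate. Of 854 alternative values of members and named genes, 45 turned in sign. Under normexp, where the median of all genes was 0.35, these were Emcn (0.34), Flt4 (0.62), Ptprb (0.0029), Eng (0.31), Mmrn2 (0.048), Rasip1 (0.56), Prox1 (0.52) and Vegfa (−0.098). With median scaling (median of all genes −0.11) they were Pecam1 (−0.032) and Vegfa (−0.063). In the authors' values and after quantile normalization, with or without the block, they were Cldn5 (−0.032) and Sox17 (−0.062 and −0.061). With slide as a block and on slide 1 only they were Pecam1 (−0.058), Cldn5 (−0.081), Sox17 (−0.15), Cd34 (0.12) and Ramp2 (0.16). On second probes they were Plvap (−0.35), Nos3 (−0.091) and Vegfa (−0.16), whose median over probes was −0.042. The second probes were chosen as an alternative after seeing the data.

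With 1 array left out, Cldn5 ranged from −0.0096 to 0.31, Cd34 from −0.49 to 0.11, Flt4 from −0.66 to 0.15, Ramp2 from −0.25 to 0.054, Sox17 from −0.017 to 0.33 and Vegfa from −0.048 to 0.17. In the fits with the block, leaving out replicate number 2 turned Pecam1 (−0.012), Cldn5 (−0.092) and Sox17 (−0.14), and leaving out replicate number 3 turned Cd34 (0.16) and Flt4 (0.20). The cause was not tested.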
